A study of Mus musculus with 24 samples.

Results

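The 10 genes described here, Fkbp5, Sgk1, Tsc22d3, Zbtb16, Plin4, Cdkn1a, Pdk4, Mt1, Mt2 and Errfi1, are known to be raised by glucocorticoid hormones in several tissues. They were looked up by gene symbol in a table of 45706 genes counted in mouse hypothalamus, and each symbol matched 1 row. The lookup did not use their levels, but the set was chosen with earlier results of these data known. Tsc22d3 lies on chromosome X (GRCm38, chrX:140539528-140600659, minus strand), Sgk1 on chromosome 10 (chr10:21882184-21999903, plus), Plin4 on chromosome 17 (chr17:56100591-56109803, minus) and Cdkn1a on the same chromosome (chr17:29090976-29100727, plus). Fkbp5, Plin4, Cdkn1a, Mt2 and Errfi1 overlap an annotated gene on the opposite strand, and the strand setting of the counting is not given in the sources used here. All 10 passed a filter on low counts that left 15667 genes for testing. The mice were males with diet-induced obesity, with a mean body weight of 53 g and housed in pairs, and their strain and age are not stated. Mice of the PICK1i group were given mPD5 (56 mg/kg), which blocks the PDZ domain of PICK1, a carrier of glutamate receptor subunits. Those of the PSD-95i group were given UCCB01-147 (25 mg/kg), which blocks PSD-95, a scaffold beneath the receptors of excitatory synapses. Saline mice were given isotonic saline. Injections were daily for 5 days, given 2 h before dark until the last day and in the morning on that day, and whole hypothalamus was taken 2 h after the last injection. Each group has 8 libraries, although the protocol lists 6 saline mice. The labels do not tie libraries to animals, so p-values measure the spread between libraries.

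Every library name holds a number from 1 to 24. What that number marks is not stated in the sources used here. PICK1i libraries have the numbers 1, 2, 5, 6, 13, 14, 19 and 20. PSD-95i libraries have 11, 12, 15, 16, 17, 18, 21 and 22, and saline libraries have 3, 4, 7, 8, 9, 10, 23 and 24. The groups are therefore spread unevenly over the numbers, and most PSD-95i libraries are in the upper part of the range while most saline libraries are in the lower part.

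Library totals lay between 4762697 and 9228843 estimated counts. Levels are given in CPM, the count of a gene scaled to a common library total, and adjusted p is a Benjamini-Hochberg value over all genes tested, called below 0.05. Markers of the hypothalamus were present in all 24 libraries, at 259.8 to 1037 CPM summed over 8 genes. Markers of the anterior pituitary summed to 76100 and 55640 CPM in saline replicates 2 and 3 and to at most 227.8 CPM elsewhere. The sum includes Pomc, with means of 121.2 CPM in PICK1i and 113.8 CPM in PSD-95i. The growth hormone gene Gh had means of 0.936 and 5.165 CPM in those groups. PICK1i replicates 1, 2, 5 and 6 stood apart by their mitochondrially encoded transcripts, at 16.61, 13.99, 13.47 and 13.68% of counts. The other 20 libraries reached at most 11.17%. Markers of cortex and hippocampus summed to 332.2 CPM in PICK1i replicate 6 and to at most 99.53 CPM in the other libraries. Because whole tissue was sequenced, fewer cells of a type and less RNA per cell cannot be told apart in any value below.

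Corticosterone, the main glucocorticoid of mice, binds the glucocorticoid receptor (Nr3c1) and, with higher affinity, the mineralocorticoid receptor (Nr3c2). The bound receptors enter the nucleus and act on DNA at glucocorticoid response elements, pairs of a short motif that face each other. In the hypothalamus the hormone restrains the neurons that drive adrenal output, and its level in blood follows the time of day and rises with handling and injection. The members act at different points downstream. Fkbp5 is a co-chaperone that lowers the receptor's affinity for hormone. Tsc22d3, also called GILZ, and Zbtb16, also called PLZF, act on transcription. Sgk1 is a kinase that regulates ion channels and transporters. Errfi1 is an inhibitor of the EGF receptor, and Cdkn1a is the cell cycle inhibitor p21. Pdk4 restrains pyruvate oxidation in mitochondria, Plin4 coats lipid droplets, and Mt1 and Mt2 are metallothioneins, small proteins that bind zinc and copper.

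Promoter windows of 300 bases (250 before and 50 after each start, GRCm38.p6, from RefSeq) were found for 9 of the 10 members, all except Zbtb16. The hexamer TGTTCT, searched on both strands so that AGAACA counts as well, occurred in 6233 of 32851 windows of all genes. Among the members it was found in 3 of 6 windows of Sgk1 and 1 of 3 windows of Tsc22d3, and in none of the other 7 members with a window. The pair of facing hexamers separated by 3 bases, AGAACA followed by TGTTCT, occurred in 3 windows of all genes (0.00913%). A window of Sgk1, at chr10:21993640-21993939 on the plus strand, was 1 of these 3. It covers the start of a 2576-base transcript and is shown because of this pair, with each hexamer in capitals.
Sgk1: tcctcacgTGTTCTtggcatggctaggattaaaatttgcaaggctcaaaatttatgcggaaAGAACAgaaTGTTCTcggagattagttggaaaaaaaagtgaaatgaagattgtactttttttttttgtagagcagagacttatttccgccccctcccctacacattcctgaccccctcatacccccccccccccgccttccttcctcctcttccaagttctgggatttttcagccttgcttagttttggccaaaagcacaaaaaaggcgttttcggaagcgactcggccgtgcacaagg
The pair lies at positions 21993701 to 21993715 of chromosome 10, 951 bases before the start of the 2456-base transcript that held 46.3% of Sgk1 counts, while the 2576-base one held 5.51%. The window of the 2456-base transcript itself held no hexamer, and that of the 3096-base transcript, with 30.7% of Sgk1 counts, held 1. In Tsc22d3, the hexamer was found once, in the window of its 1552-base transcript, which held 3.59% of the counts of the gene. No window covered the start of its 952-base or 1974-base transcript, with 34.0% and 25.7% of the counts. A match is a description of letters and was not tested as a binding site.

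The metallothionein windows are shown because these neighbouring genes, 5513 bases apart on chromosome 8, moved together across libraries. Capitals mark the core of the metal response element, TGCGCNC or TGCACNC on either strand, which binds the zinc sensor MTF1. The window of Mt1 lies at chr8:94178839-94179138 and that of Mt2 at chr8:94172368-94172667, both on the plus strand.
Mt1: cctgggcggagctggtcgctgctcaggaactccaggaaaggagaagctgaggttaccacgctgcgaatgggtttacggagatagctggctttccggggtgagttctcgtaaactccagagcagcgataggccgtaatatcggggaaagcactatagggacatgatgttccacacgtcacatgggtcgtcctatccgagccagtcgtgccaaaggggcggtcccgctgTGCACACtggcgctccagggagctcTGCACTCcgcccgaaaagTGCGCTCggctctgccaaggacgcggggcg
Mt2: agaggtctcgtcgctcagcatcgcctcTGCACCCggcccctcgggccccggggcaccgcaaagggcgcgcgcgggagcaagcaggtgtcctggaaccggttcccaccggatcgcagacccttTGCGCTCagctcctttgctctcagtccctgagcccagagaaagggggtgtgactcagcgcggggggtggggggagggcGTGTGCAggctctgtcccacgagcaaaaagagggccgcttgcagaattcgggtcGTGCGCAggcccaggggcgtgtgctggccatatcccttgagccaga
The core occurred 3 times in the Mt1 window and 4 times in the Mt2 window. At least 1 core occurred in 25.7% of all windows, and 3 or more in 1.97%. Neither window held the hexamer TGTTCT. The reference transcripts of Mt1 and Mt2, of 549 and 511 bases, shared 0 runs of 31 bases.

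Levels per length, in CPM per kilobase of the count-weighted transcript length, were highest for the metallothioneins. Mt1 stood at 403 ± 86.8 in PICK1i, 335 ± 38.6 in PSD-95i and 326 ± 40.1 in saline (SD, n = 8 each, as for all values with ± in this paragraph). Mt2 followed with 222 ± 44.8 in PICK1i, 171 ± 20 in PSD-95i and 181 ± 14.4 in saline. Tsc22d3, the most abundant of the other members, stood at 61.1 ± 12.5 in PICK1i, 57.7 ± 6.84 in PSD-95i and 52.6 ± 7.01 in saline. Sgk1 came next, at 20.5 ± 9.77, 18.7 ± 7.19 and 16.1 ± 3.10 in the same order of groups. Cdkn1a, Zbtb16, Errfi1, Plin4 and Fkbp5 had group means between 4.30 and 10.3. Pdk4 was the lowest member, at 3.08 ± 0.820 in PICK1i, 3.19 ± 0.581 in PSD-95i and 3.09 ± 0.650 in saline. For comparison, the glucocorticoid receptor gene Nr3c1 stood at 13.1 ± 1.85 in PICK1i, 14.6 ± 0.962 in PSD-95i and 16.1 ± 1.58 in saline.

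**Figure D1:**
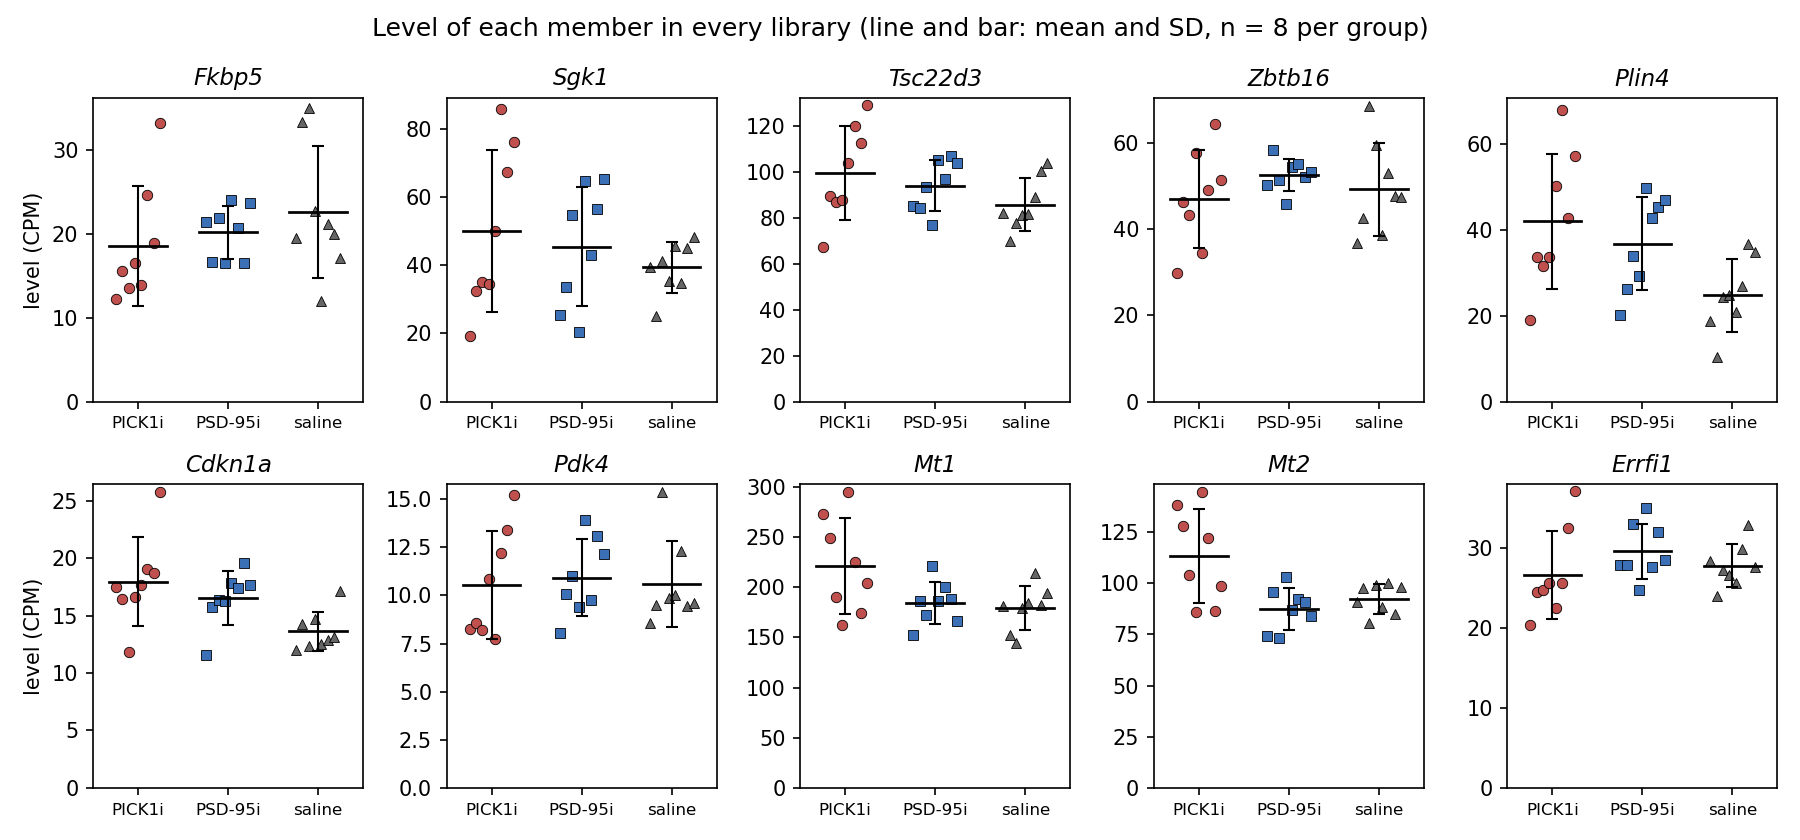
Level of the 10 members in CPM (vertical axis, from 0) in each of 24 libraries, by group (horizontal axis), with points in replicate order and lines and bars for the mean and SD (n = 8). The groups overlap for every member, and Plin4 and Cdkn1a have most PICK1i and PSD-95i libraries above the saline mean.

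Tsc22d3, Sgk1 and Plin4 varied together across the 24 libraries, in treated and saline mice alike, and most other members followed them less closely. Covariation was measured as the correlation of log2 CPM with the mean of each group removed, so that a difference between treatments does not enter it. The p-values come from 100000 permutations of libraries within groups (two-sided, smallest possible value 1e-05) and were adjusted over the 45 pairs of members. They treat the libraries of a group as exchangeable. Libraries of a group carry consecutive numbers in pairs, and the estimated correlation of consecutive libraries over all genes was 0.141. The permutations do not allow for it, so these p-values may be too small. Tsc22d3 and Sgk1 had r = 0.90 and Spearman's rho = 0.883 (n = 24, permutation p = 1e-05 for each, adjusted p = 0.000112 for r and 0.00015 for rho). The correlation was 0.983 within PICK1i, 0.936 within PSD-95i and 0.720 within saline. Without the 2 libraries farthest from the median of Sgk1, with group means removed, it was 0.855. For each pair, the farthest libraries were those of the gene named earlier in the opening list of members. Plin4 belonged to the same trio. With Tsc22d3 it had r = 0.891 and rho = 0.917 (permutation p = 1e-05 for each, adjusted p = 0.000112 and 0.00015), and r = 0.955 in PICK1i, 0.843 in PSD-95i and 0.888 in saline. With Sgk1 it had r = 0.829 and rho = 0.819 (permutation p = 1e-05 for each, adjusted p = 0.000112 and 0.00015), and r = 0.955 in PICK1i, 0.824 in PSD-95i and 0.798 in saline. Leaving out the 2 farthest libraries gave 0.872 for Tsc22d3 with Plin4 and 0.822 for Sgk1 with Plin4.

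Errfi1, the EGF receptor inhibitor, followed this trio less tightly. Its r was 0.754 with Tsc22d3 (rho = 0.710, permutation p = 0.00015 and 0.00037, adjusted p = 0.00135 and 0.00277) and 0.698 with Sgk1 (rho = 0.685, permutation p = 0.00082 and 0.00098, adjusted p = 0.00572 and 0.0063). Without the 2 farthest libraries these fell to 0.614 and 0.579. Within saline the correlation of Sgk1 and Errfi1 was 0.492, against 0.715 in PICK1i and 0.792 in PSD-95i.

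Over all 45 pairs the median r was 0.377, and 19 pairs (42.2%) had r of at least 0.5. Over the 122719611 pairs of all tested genes the median was -0.00175, and 6.21% had r of at least 0.5. The median of the member pairs was 0.572 within PICK1i, 0.365 within PSD-95i and 0.036 within saline. Without saline replicates 2 and 3, the libraries with pituitary transcripts, the median over all groups was 0.54. Without PICK1i replicates 1, 2, 5 and 6 it was 0.31. The libraries are the shared points of all these correlations, and shared depth or composition can enter each of them.

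Fkbp5, the most widely used marker of glucocorticoid action among the 10, did not follow the trio across all libraries. With Tsc22d3 its r was 0.332 and its rho 0.292 (permutation p = 0.161 and 0.203, adjusted p = 0.213 and 0.262), and 0.18 without the 2 farthest libraries. The correlation was 0.848 within PICK1i, 0.47 within PSD-95i and -0.508 within saline. Without saline replicates 2 and 3 it was 0.651 over the remaining 22 libraries. In those 2 libraries Fkbp5 stood at 33.3 and 35.0 CPM, above the other 6 saline libraries, while Tsc22d3 stood at 70.2 and 77.8 CPM, the 2 lowest saline values. Whether pituitary cells carried this Fkbp5 signal was not tested.

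The metallothioneins formed a second pair. Mt1 and Mt2 had r = 0.875 and rho = 0.823 (permutation p = 1e-05 and 4e-05, adjusted p = 0.000112 and 0.00045), and 0.816 without the 2 farthest libraries. The correlation was 0.977 in PICK1i, 0.870 in PSD-95i and 0.514 in saline. They did not rise and fall with the other members. The lowest correlations of all 45 pairs were Mt1 with Zbtb16 (r = -0.592, rho = -0.467, permutation p = 0.00976 and 0.0407, adjusted p = 0.0366 and 0.0797) and Mt2 with Errfi1 (r = -0.585, rho = -0.583, permutation p = 0.0143 and 0.00798, adjusted p = 0.0397 and 0.0236). Without the 2 farthest libraries these were -0.462 and -0.599. Both rest largely on PICK1i replicates 1, 2, 5 and 6, since without them they were -0.286 and -0.281.

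**Figure D2:**
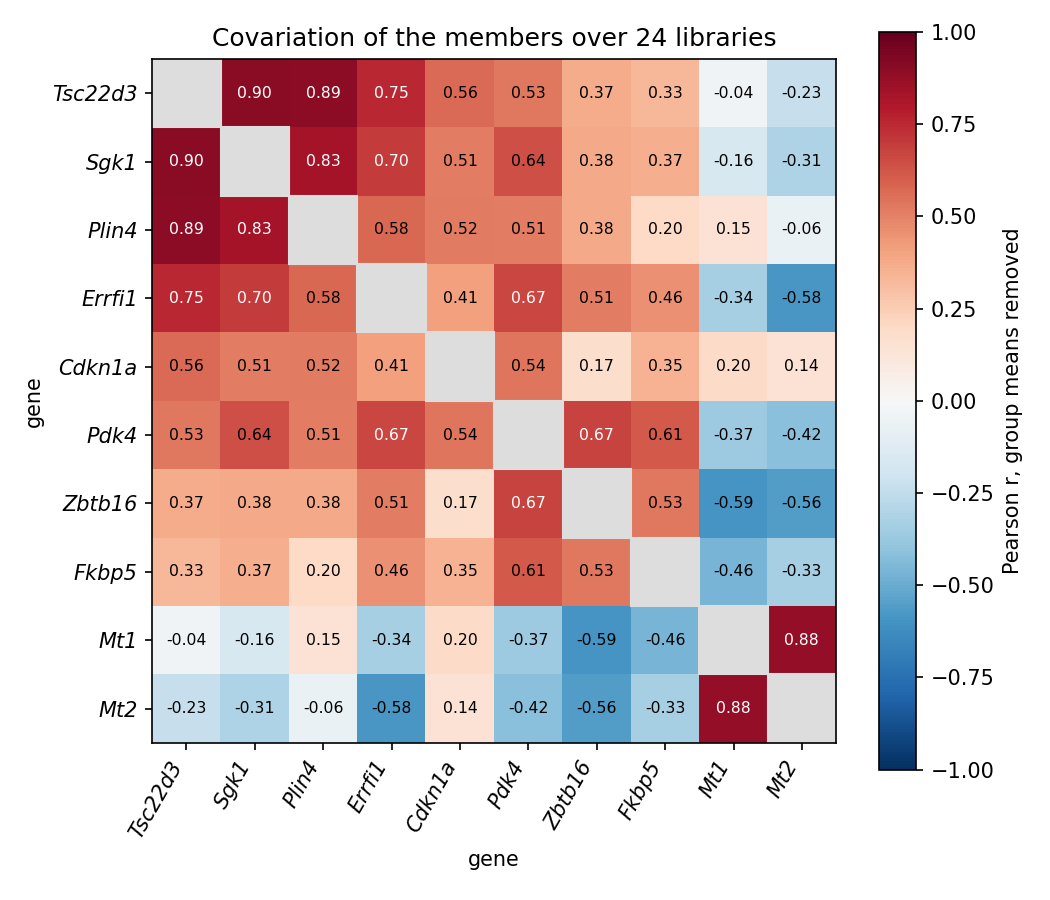
Pearson r between the 10 members over 24 libraries (both axes list the genes, color gives r from -1 to 1, group means removed, diagonal left grey). Tsc22d3, Sgk1 and Plin4 form the block at the upper left with r of 0.829 to 0.90, and Mt1 and Mt2 pair with each other at 0.875 and have r below 0 with Zbtb16, Pdk4, Fkbp5 and Errfi1.

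The trio also followed the library number. Tsc22d3 stood at 67.5, 87.3 and 89.5 CPM (lowest, median and highest) in the 4 PICK1i libraries numbered 1 to 12, and at 104, 117 and 129 CPM in the 4 numbered 13 to 24. In PSD-95i the 2 low-numbered libraries held 84.3 and 85.2 CPM, and the 6 high-numbered ones 76.9, 101 and 107 CPM. In saline the 6 low-numbered libraries held 70.2, 81.5 and 89.1 CPM, and the 2 high-numbered ones 100 and 104 CPM. Low and high numbers did not overlap in PICK1i or in saline, and overlapped in PSD-95i through replicate 4. How many of all genes split in this way was not counted.

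Plin4, the lipid droplet protein, showed the same split with a larger range. PICK1i libraries held 18.9, 32.7 and 33.8 CPM at numbers 1 to 12 and 42.8, 53.6 and 67.8 CPM at 13 to 24. PSD-95i libraries held 20.3 and 26.1 CPM at low numbers and 29.3, 44.1 and 49.7 CPM at high numbers. Saline libraries held 10.4, 22.7 and 26.9 CPM at low numbers and 34.7 and 36.6 CPM at high numbers. No low-numbered library of a group reached a high-numbered library of the same group. Sgk1 had no overlap in PICK1i, at 19.3 to 35.2 CPM for low numbers and 49.9 to 85.8 CPM for high ones. PSD-95i replicate 4, library number 16, was the exception among high-numbered libraries, with 20.5 CPM. In saline, Sgk1 overlapped between low numbers (25.0 to 45.7 CPM) and high ones (45.1 and 48.3 CPM). The share of all genes that split without overlap was not counted, so these splits of the trio have no background beside them. PSD-95i has only 2 low-numbered libraries and saline only 2 high-numbered ones, which makes such a split easier to reach.

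A term for library number was added to the fit beside the 3 groups, after these values had been seen. The members too were chosen with earlier results of these data known. Of 15667 genes tested, 3 (0.0191%) changed with library number at an adjusted p under 0.05, and 2 of the 3 were members. Tsc22d3 had the smallest p of all genes. It rose by 0.29 ± 0.04 on the log2 scale per 10 library numbers (SE, edgeR's quasi-likelihood test, adjusted p = 0.00209). Plin4 ranked 3, with a rise of 0.61 ± 0.10 per 10 numbers (edgeR adjusted p = 0.00487). Rank 2 was held by Fmo2, a flavin monooxygenase that is no member (0.71 ± 0.11, edgeR adjusted p = 0.00325). Nr1d1, also no member, held rank 4 with a change in the other direction and did not pass (-0.28 ± 0.06, edgeR adjusted p = 0.135). Sgk1 ranked 5 with a change of 0.58 ± 0.12 and did not pass the threshold over all genes (edgeR adjusted p = 0.263).

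The calls on Tsc22d3 and Plin4 did not rest on single libraries. Each was called in all 24 fits that left out 1 library, with adjusted p up to 0.0146 for Tsc22d3 and up to 0.0244 for Plin4 by edgeR's quasi-likelihood test. Without saline replicates 2 and 3, 4 of 15820 genes were called (0.0253%), and without PICK1i replicates 1, 2, 5 and 6, 4 of 16121 (0.0248%). Both sets held Tsc22d3 and Plin4, with changes of 0.28 ± 0.04 and 0.57 ± 0.09 in the first case and 0.26 ± 0.04 and 0.57 ± 0.10 in the second (SE).

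Tsc22d3 and Plin4 were also correlated with library number within each group. For Tsc22d3 it was 0.913 in PICK1i, 0.722 in PSD-95i and 0.915 in saline, with r = 0.852 and rho = 0.841 over all 24 (permutation p = 1e-05 for each, adjusted p = 0.0002 over the 40 relations of members with library measures). For Plin4 it was 0.803 in PICK1i, 0.875 in PSD-95i and 0.790 in saline, with r = 0.796 and rho = 0.882 over all (permutation p = 1e-05 for each, adjusted p = 0.0002). Leaving out the 2 libraries with the farthest numbers once group means were removed, saline replicates 7 and 8, gave 0.848 for Tsc22d3 and 0.774 for Plin4. Once a linear trend with library number was removed, the correlation of Sgk1 and Tsc22d3 was 0.831, that of Tsc22d3 and Plin4 0.673 and that of Sgk1 and Plin4 0.644. Libraries of a group carry consecutive numbers in pairs, and neither these permutations nor the edgeR fits with library number allow for it. The p-values for library number and the other library measures may therefore be too small.

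By edgeR none of the other members passed the adjusted threshold over all genes for library number. In the permutation test over 40 relations, Sgk1 (r = 0.684, adjusted p = 0.00107), Cdkn1a (r = 0.615, adjusted p = 0.0052) and Errfi1 (r = 0.59, adjusted p = 0.015) passed as well. Their rho values had adjusted p = 0.0008, 0.009 and 0.0476 by permutation. Cdkn1a had a change of 0.22 ± 0.06 per 10 numbers (edgeR adjusted p = 0.408) and Errfi1 one of 0.18 ± 0.05 (adjusted p = 0.408). Pdk4 had 0.19 ± 0.09 (edgeR adjusted p = 0.493). Values were close to 0 for Mt1 (0.01 ± 0.07) and Mt2 (-0.05 ± 0.06), and Zbtb16 had 0.10 ± 0.08. Fkbp5 had 0.10 ± 0.13, and the value ranged over -0.04 to 0.20 when 1 library was left out. Without saline replicates 2 and 3 it was 0.23 ± 0.10 (edgeR adjusted p = 0.696). In all, 9 of the 10 members had a change above 0, with a median of 0.189, beside a median of 0.00034 over all genes.

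**Figure D3:**
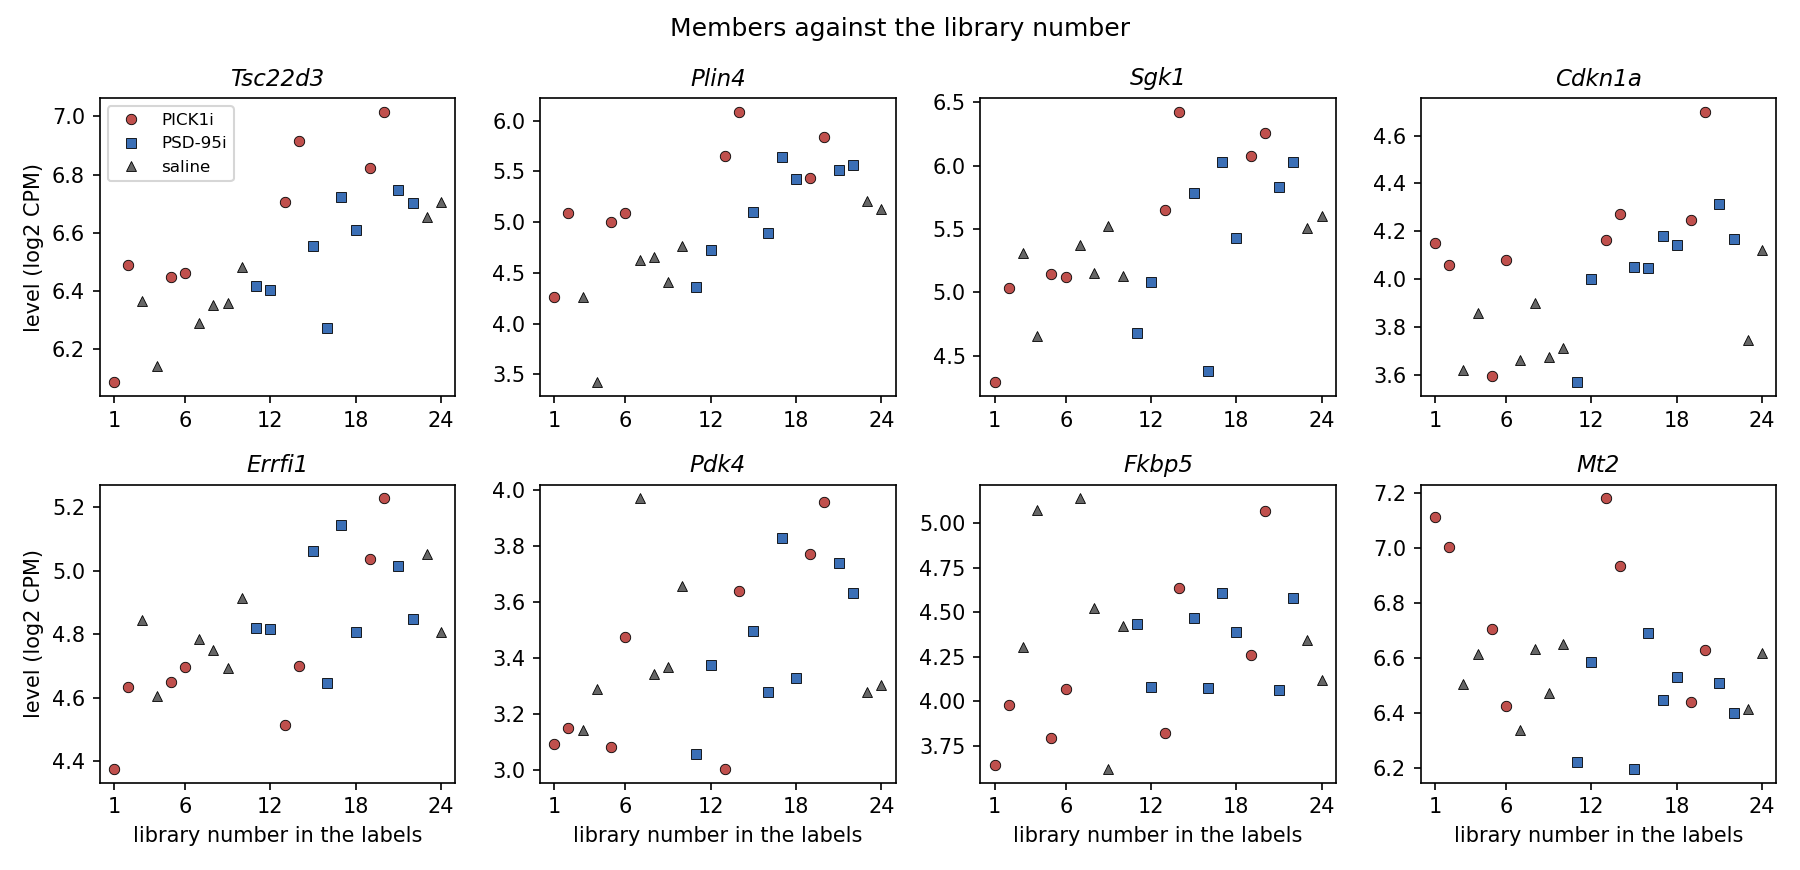
Level of 8 members in log2 CPM (vertical axes differ between panels) against the library number (horizontal axis), with circles for PICK1i, squares for PSD-95i and triangles for saline. Plin4 stands higher at numbers 13 to 24 in each group, and Tsc22d3 does so except for PSD-95i replicate 4 at number 16. Sgk1 overlaps in PSD-95i and saline, and Mt2 shows no slope. How many of all genes split in this way was not counted.

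A list of 30 other glucocorticoid-responsive genes, of which 28 could be tested, was examined in the same fit. None passed the adjusted threshold for library number, and 10 of 28 had an unadjusted p under 0.05, beside 1568 of all 15667 genes (10%). The median change over the list was 0.05. The smallest p belonged to Slc2a1, the glucose transporter of the blood-brain barrier (0.27 ± 0.06, edgeR adjusted p = 0.408). Glul, the glutamine synthetase of astrocytes, had 0.15 ± 0.04, and Ddit4, an inhibitor of mTOR signaling, had 0.15 ± 0.04 (SE, adjusted p = 0.408 for each by edgeR). Among peptides and receptors of the stress axis 0 of 9 tested genes passed, and the receptor genes Nr3c1 (-0.04 ± 0.05) and Nr3c2 (-0.06 ± 0.07) had values close to 0. Of 8 astrocyte markers 3 had an unadjusted p under 0.05, and 1 of 8 endothelial markers, with 0 past the adjusted threshold in either list. Both anterior pituitary markers that could be tested, Cga and Pomc, had an unadjusted p under 0.05 for library number, with changes of -3.24 ± 1.18 and -1.61 ± 0.68 and neither past the adjusted threshold (edgeR adjusted p = 0.459 and 0.48). The pituitary libraries, saline replicates 2 and 3, have low numbers, and their part in other values is given by the fits without them.

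PICK1i against saline addressed which members differ after inhibition of PICK1. Plin4 and Cdkn1a rose, and the other 8 did not pass the test. Over all genes 9.15% were called (1434 of 15667), of which 765 were higher (4.88% of all tested), and 2 of 10 members is read against that background. Plin4 stood at 18.9, 38.3 and 67.8 CPM (lowest, median and highest of 8) in PICK1i, against 10.4, 24.7 and 36.6 CPM in saline. The ranges overlapped, and 7 of 8 PICK1i libraries lay above the saline median. Plin4 rose by 0.76 ± 0.23 on the log2 scale (SE, edgeR's quasi-likelihood test, adjusted p = 0.0392).

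Cdkn1a, the cell cycle inhibitor, stood at 11.8, 17.6 and 25.7 CPM in PICK1i, against 12.03, 12.99 and 17.1 CPM in saline. The lowest PICK1i library, replicate 3, was below every saline library, and 7 of 8 PICK1i libraries were above the saline median. The gene rose by 0.40 ± 0.12 (edgeR adjusted p = 0.0377). Both calls are close to the threshold. Of 16 fits that left out 1 PICK1i or saline library, Plin4 was called in 8 (0.63 to 0.87) and Cdkn1a in 8 (0.29 to 0.46). Without saline replicates 2 and 3 the values were 0.61 for Plin4 (edgeR adjusted p = 0.106) and 0.38 for Cdkn1a (adjusted p = 0.0925), and 5 genes in all were called.

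Mean library numbers of these 2 groups were close, at 10 in PICK1i and 11 in saline. The comparison was also made with library number in the fit, an alternative chosen after seeing the data. In that fit 1524 genes were called (9.73%), and 3 members were higher in PICK1i. Plin4 was higher by 0.83 ± 0.15 (edgeR adjusted p = 0.0132), Cdkn1a by 0.41 ± 0.10 (adjusted p = 0.0187) and Tsc22d3 by 0.23 ± 0.06 (adjusted p = 0.0248). Without the term for library number Tsc22d3 had 0.22 ± 0.11, a similar size with a larger SE. When saline replicates 2 and 3 were left out of this fit as well, 8 of 15820 genes were called (0.0506%). Plin4 was among those 8, at 0.77 ± 0.15 (edgeR adjusted p = 0.0393), while Cdkn1a had 0.44 ± 0.11 (adjusted p = 0.0637) and Tsc22d3 0.21 ± 0.07 (adjusted p = 0.086). When PICK1i replicates 1, 2, 5 and 6 were left out instead, 0 of 16121 genes were called (0%), with Plin4 at 0.68 ± 0.16 (edgeR adjusted p = 0.364). There 3 of 10 members had an unadjusted p under 0.05, beside 1756 of all 16121 genes (10.9%).

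The metallothioneins missed the threshold narrowly. Mt2 stood at 85.7, 113 and 145 CPM in PICK1i, against 80.5, 94.1 and 100 CPM in saline, a difference of 0.29 ± 0.10 on the log2 scale (edgeR adjusted p = 0.0556). Mt1 stood at 162, 214 and 295 CPM in PICK1i, against 144, 182 and 214 CPM in saline, a difference of 0.30 ± 0.11 (edgeR adjusted p = 0.0648). In PICK1i the 4 highest values of each gene came from replicates 1, 2, 5 and 6, where Mt2 stood at 138, 128, 145 and 122 CPM. Those are the libraries with the high share of mitochondrially encoded transcripts. Without them the differences were 0.01 for Mt1 and 0.02 for Mt2 with library number in the fit, and each had an edgeR adjusted p of 0.954 or more.

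Both metallothioneins followed that share across all 24 libraries, with group means removed. For Mt1 the correlation was r = 0.742 and rho = 0.734 (permutation p = 0.0009 and 0.00115, adjusted p = 0.006 and 0.0092 over 40 relations). For Mt2 it was r = 0.737 and rho = 0.685 (permutation p = 0.00206 and 0.00469, adjusted p = 0.0103 and 0.0313). Without PICK1i replicates 1 and 7, the 2 libraries farthest from the median share, r was 0.699 and 0.644. Within PICK1i r was 0.869 for Mt1 and 0.915 for Mt2, within PSD-95i 0.591 and 0.707, and within saline 0.406 and -0.37. They were also related to length tilt, the slope of log2 deviations of the other genes on log2 transcript length. For Mt1 r was -0.732 (permutation p = 0.00147, adjusted p = 0.0084) and rho -0.644 (permutation p = 0.00617, adjusted p = 0.0352). For Mt2 r was -0.813 (permutation p = 0.00037, adjusted p = 0.0037) and rho -0.657 (permutation p = 0.00729, adjusted p = 0.0352). The sign differed between groups, since r was -0.959 for Mt1 and -0.972 for Mt2 in PICK1i, -0.905 and -0.681 in PSD-95i, and 0.662 and 0.232 in saline. Without the 2 farthest libraries r over all groups was -0.657 and -0.743. Zbtb16 was related to length tilt with the opposite sign, at r = 0.626 (permutation p = 0.0071, adjusted p = 0.0284). Its rho was 0.447 (permutation p = 0.0634, adjusted p = 0.181). Its r was 0.849 in PICK1i, 0.297 in PSD-95i and 0.115 in saline, and 0.385 without the 2 farthest libraries. The part of RNA quality in the metallothionein values was not tested. Their brain-enriched relative Mt3, from a list of relatives, rose by 0.56 ± 0.11 (234 ± 48.5 CPM in PICK1i, 159 ± 27.4 CPM in saline, SD, n = 8 each, edgeR adjusted p = 0.0175).

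**Figure D4:**
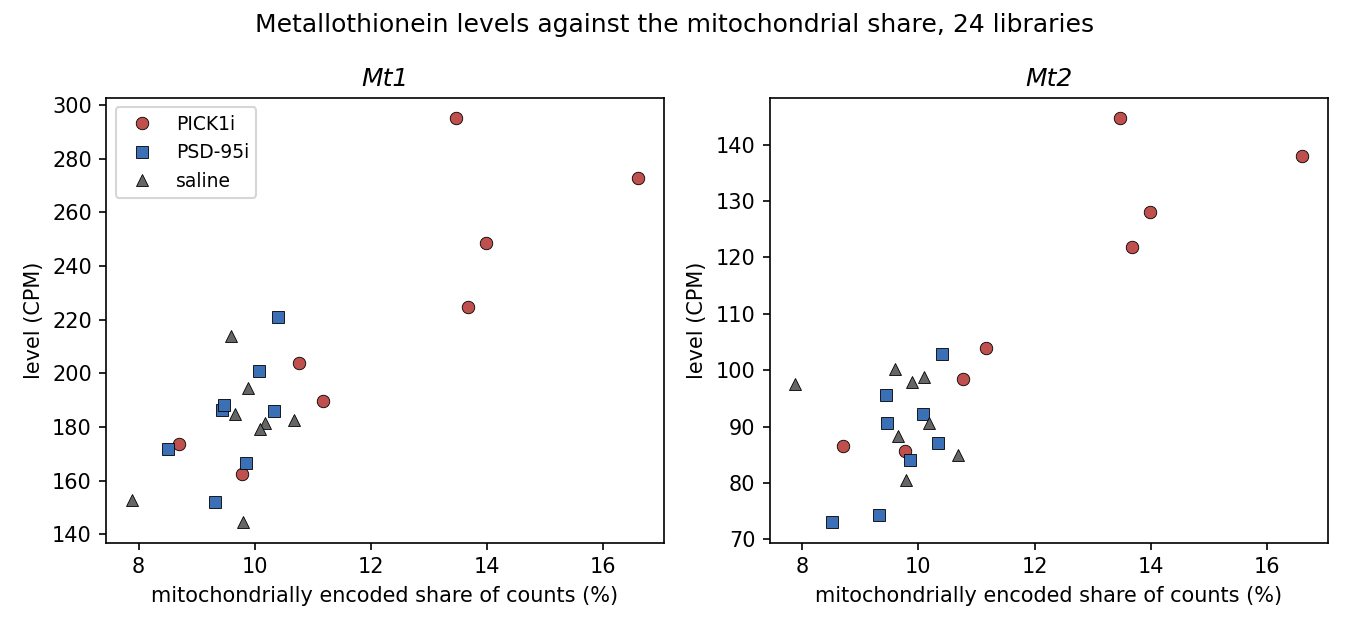
Mt1 and Mt2 levels in CPM (vertical axes, not from 0) against the share of counts from mitochondrially encoded transcripts in percent (horizontal axis) in 24 libraries, with circles for PICK1i, squares for PSD-95i and triangles for saline. PICK1i replicates 1, 2, 5 and 6, at 13.47 to 16.61%, hold the 4 highest values of both genes.

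Fkbp5 did not pass the test in PICK1i against saline. It stood at 12.2, 16 and 33.2 CPM in PICK1i, against 12.01, 20.6 and 35.0 CPM in saline, a difference of -0.28 ± 0.20 (edgeR adjusted p = 0.357). With saline replicates 2 and 3 left out and library number in the fit, the difference was 0.02 ± 0.17. Tsc22d3 stood at 67.5, 96.7 and 129 CPM in PICK1i, against 70.2, 81.8 and 104 CPM in saline, with a difference of 0.22 ± 0.11 (edgeR adjusted p = 0.172). Sgk1 stood at 19.3, 42.6 and 85.8 CPM in PICK1i, against 25.0, 40.3 and 48.3 CPM in saline, with a difference of 0.35 ± 0.25 (adjusted p = 0.365). PICK1i had both the lowest and the highest Sgk1 library of these 16. Zbtb16 (-0.05 ± 0.13), Errfi1 (-0.05 ± 0.10) and Pdk4 (0.01 ± 0.15) differed by less than their errors. Over the 10 members the median log2 fold change was 0.255, beside -0.0092 over all genes, with 7 of 10 above 0.

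PSD-95i against saline addressed which members differ after inhibition of PSD-95, and none passed the test. The same held for all genes, with 0 of 15667 called (0%), 1719 at an unadjusted p under 0.05 and 0 by DESeq2 and limma-voom. Plin4 stood at 20.3, 38.4 and 49.7 CPM in PSD-95i, against 10.4, 24.7 and 36.6 CPM in saline, with a difference of 0.58 ± 0.23 (edgeR adjusted p = 0.4). Cdkn1a stood at 11.6, 16.9 and 19.6 CPM in PSD-95i, against 12.03, 12.99 and 17.1 CPM in saline, with 0.28 ± 0.12 (edgeR adjusted p = 0.425). Of these 8 PSD-95i libraries 7 lay above the saline median for each gene. With library number in the fit the differences were smaller, at 0.27 ± 0.16 for Plin4 and 0.15 ± 0.10 for Cdkn1a. For Tsc22d3 the difference was 0.14 ± 0.11 without that term and -0.02 ± 0.07 with it. The other 7 members had differences between -0.16 and 0.21, and the median over the 10 was 0.0971, beside -0.00307 over all genes. The 2 comparisons with saline share the saline libraries.

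PSD-95i against PICK1i compared the 2 inhibitors, which differ in compound, target and dose. No member passed the test, nor did any gene (0 of 15667, 0%, with 3789 at an unadjusted p under 0.05). DESeq2 called 1359 genes and limma-voom 429. Mt2 was closest, at 73.0, 88.8 and 103 CPM in PSD-95i, against 85.7, 113 and 145 CPM in PICK1i, a difference of -0.37 ± 0.10 (edgeR adjusted p = 0.0513). No PSD-95i library reached the PICK1i median of 113 CPM. Mt1 had a difference of -0.27 ± 0.11 (edgeR adjusted p = 0.127). Mt2 passed the threshold with DESeq2 (-0.38, adjusted p = 0.0122), with limma-voom (-0.36, adjusted p = 0.0469) and in edgeR without saline replicates 2 and 3 (-0.37, adjusted p = 0.0344). Without PICK1i replicates 1, 2, 5 and 6 and with library number in the fit, the Mt2 difference was -0.10 ± 0.09. The other 8 members had differences between -0.18 and 0.15. With library number in the fit over all libraries, 0 genes were called, Plin4 had -0.55 ± 0.16 (edgeR adjusted p = 0.093) and Tsc22d3 -0.25 ± 0.07 (adjusted p = 0.0917).

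**Figure D5:**
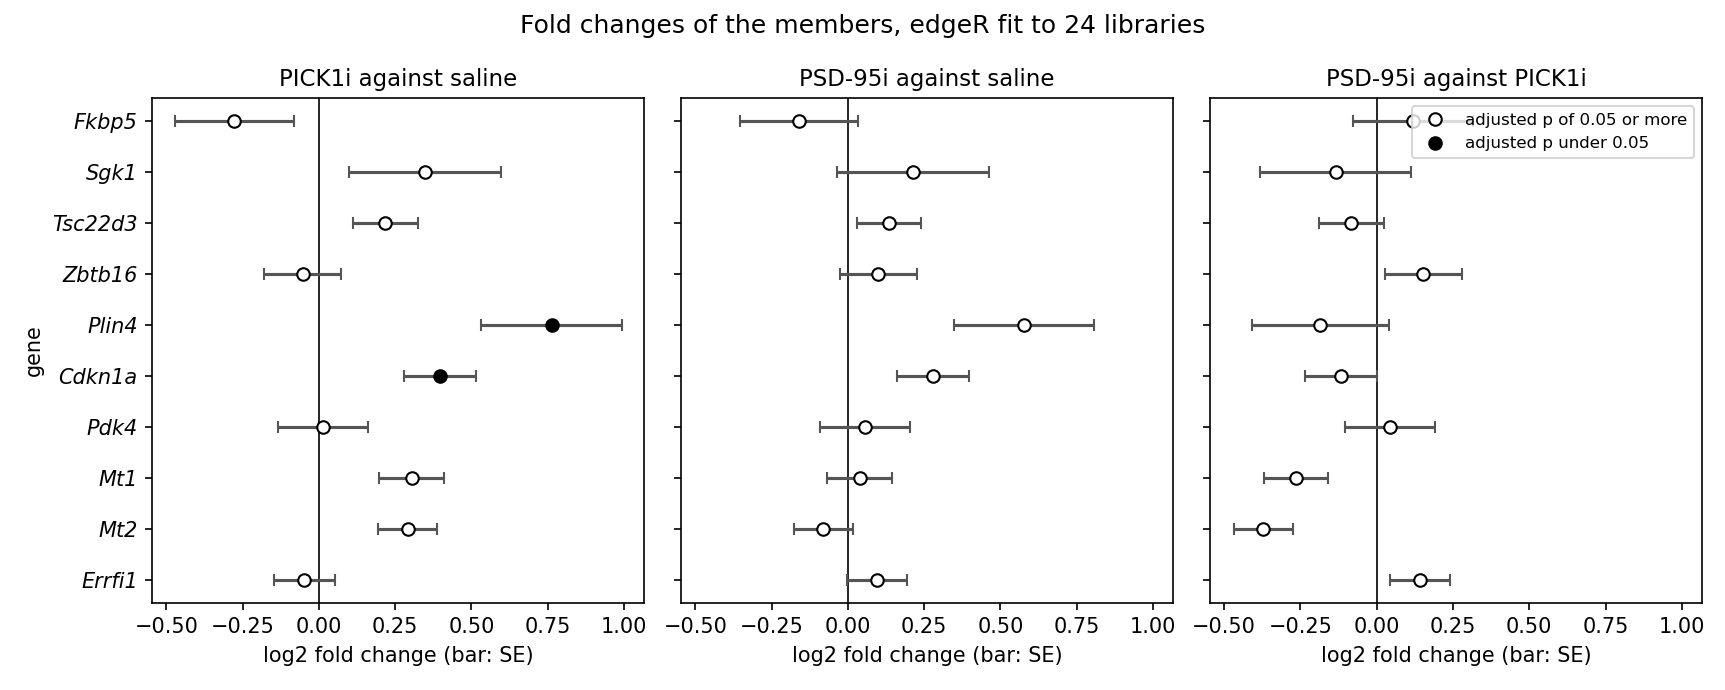
Log2 fold change (horizontal axis) of the 10 members (rows) with its SE in 3 comparisons, from 1 edgeR fit to 24 libraries, with filled points for an adjusted p under 0.05. Plin4 (0.76) and Cdkn1a (0.40) in PICK1i against saline are the filled points, and no point is filled in the comparisons of PSD-95i with saline or with PICK1i.

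The counts of most members came from few transcripts. Of 38 member transcripts with counts deposited, 26 were tested, and 18 held at least 10% of the counts of their gene. In PICK1i against saline 760 of 37955 transcripts were called (2%), and 0 of the 18. By the same test 0 were called without saline replicates 2 and 3. The 5756-base transcript of Plin4, with 83.4% of Plin4 counts, had a difference of 0.70 ± 0.21 (34.4 ± 10.4 CPM in PICK1i, 21.2 ± 6.99 CPM in saline, SD, n = 8 each, edgeR adjusted p = 0.0586). The 5755-base transcript of Plin4, with 16.6%, had 0.98 ± 0.33 (adjusted p = 0.0903). The 1913-base transcript of Cdkn1a, with 80.3% of Cdkn1a counts, had 0.34 ± 0.13 (adjusted p = 0.113).

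With library number in the transcript fit, 1 of 37955 transcripts passed the threshold (0.00263%), and it was the 5756-base transcript of Plin4, with 0.55 ± 0.09 per 10 numbers (edgeR adjusted p = 0.0234). The 1974-base transcript of Tsc22d3, with 25.7% of the counts of its gene, ranked 4 (0.32 ± 0.06, adjusted p = 0.0703). Its 952-base transcript ranked 8 (0.26 ± 0.05) and its 1790-base transcript ranked 20 (0.23 ± 0.05), so the 3 main transcripts of Tsc22d3 had similar values. The 5755-base transcript of Plin4 ranked 9 (0.80 ± 0.16), the 2456-base transcript of Sgk1 ranked 10 (0.58 ± 0.12) and the 3096-base transcript of Sgk1 ranked 15 (0.44 ± 0.10). How reads are divided between transcripts of 1 gene is itself estimated.

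The receptor genes themselves had lower mean levels in PICK1i than in saline. Of 13 tested genes in a list of steroid receptors, chaperones and coregulators, 5 were higher and 5 lower in PICK1i than in saline. The glucocorticoid receptor Nr3c1 fell by 0.30 ± 0.08 on the log2 scale (73.3 ± 10.4 CPM in PICK1i, 90.2 ± 8.87 CPM in saline, SD, n = 8 each, edgeR adjusted p = 0.0225). The mineralocorticoid receptor Nr3c2 fell by 0.41 ± 0.11 (21.04 ± 3.61 CPM in PICK1i, 28.3 ± 4.34 CPM in saline, adjusted p = 0.0254). Ncoa2, a coactivator of the receptors, fell by 0.29 ± 0.08 (adjusted p = 0.0276), while Bag1, a co-chaperone, rose by 0.23 ± 0.06 (adjusted p = 0.031). In PSD-95i the same genes did not pass, with -0.14 ± 0.07 for Nr3c1 (edgeR adjusted p = 0.496) and -0.15 ± 0.11 for Nr3c2 (adjusted p = 0.602).

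Lists for other inputs to the members are read against the 9.15% of all genes called in PICK1i against saline and the 28.8% at an unadjusted p under 0.05. Of 28 other glucocorticoid-responsive genes 0 passed in PICK1i against saline and 6 had an unadjusted p under 0.05, led by Arrdc2, an arrestin-domain protein (0.38 ± 0.13, edgeR adjusted p = 0.0624). In the list of stress-axis peptides and receptors 1 of 9 tested genes passed. This was Crhbp, the binding protein of corticotropin-releasing hormone (12.4 ± 1.47 CPM in PICK1i, 8.28 ± 2.41 CPM in saline, 0.58 ± 0.14, adjusted p = 0.02). The hormone gene Crh itself was measured at 5.71 ± 2.49 CPM in PICK1i and 3.67 ± 2.97 CPM in saline (0.60 ± 0.36, adjusted p = 0.272). Of 9 tested p53 target genes, which share p53 as an input with Cdkn1a, 1 was higher, namely Phlda3 (0.42 ± 0.11, edgeR adjusted p = 0.0225). Of 8 metal-responsive and zinc transport genes 0 passed, and the zinc exporter Slc30a1, a target of the same sensor as the metallothioneins, had -0.25 ± 0.08 (adjusted p = 0.0527).

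Among 14 genes of fatty acid oxidation and fasting 0 were higher and 1 lower, Foxo1, a transcription factor of fasting (-0.59 ± 0.15, edgeR adjusted p = 0.0215). Of 11 feedback genes of MAPK signaling, the pathway that Errfi1 restrains, 0 passed. Of 15 tested relatives of the members 3 were higher, Mt3, the immunophilin Fkbp4 (0.18 ± 0.05, adjusted p = 0.0369) and Fkbp1a (0.20 ± 0.06, adjusted p = 0.0448). All of these calls on list members come from the fit in which saline replicates 2 and 3 and the 4 PICK1i libraries of high mitochondrial share take part. Over all genes, 5 were called without those 2 saline libraries and 0 without the 4 PICK1i libraries. Markers of several cell types moved in PICK1i against saline. Of 7 neuron markers 7 lay above 0 and 2 were called higher (median 0.226), and of 8 oligodendrocyte markers 8 lay above 0 and 1 was called higher (median 0.281). Of 5 tested cortex and hippocampus markers 5 lay above 0 and 0 were called (median 1.08). Of 7 leptomeningeal markers 0 lay above 0 and 2 were called lower (median -0.83). The part of tissue composition in the values of the members was not tested.

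Outside the 10 genes, the tested genes most like each member were ranked by r of log2 CPM with group means removed over 24 libraries. Arl4d, an ARF-like GTPase, was among the 3 closest to Sgk1 (r = 0.877), Tsc22d3 (0.784) and Plin4 (0.859). Glul was among the 3 closest to Tsc22d3 (0.799) and Plin4 (0.823), and Usp54 was closest to Sgk1 (0.88). For Sgk1, Tsc22d3 and Plin4, 0 tested genes lay closer than the nearest member. The same held for Mt2, whose nearest member was Mt1. For Fkbp5 the closest gene was Sesn1, a stress-induced inhibitor of mTORC1 (r = 0.871), and 332 genes lay closer than its nearest member, Pdk4. For Mt1 the closest were Mt3 (0.905) and Cst3 (0.902), the gene of cystatin C, with 8 genes closer than Mt2. For Errfi1 the closest was Ace (0.837), for Cdkn1a Nmnat1 (0.731), for Pdk4 Taf1 (0.805), for Zbtb16 Cacnb2 (0.831) and for Mt2 Lamtor4 (0.868).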

How the data were processed

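Estimated counts per gene and per transcript were deposited by the authors as 1 table each, with 1 column per library and no scaling to depth. Per the submitters' processing notes they used bcl2fastq 2.20.0, STAR, Salmon and GRCm38, with no version named for STAR or Salmon. Per the labels' protocols, libraries were TruSeq stranded poly(A), read as 52-base pairs of reads. Values were rounded to whole numbers. Genes were filtered with edgeR 4.0.16 (filterByExpr, minimum count 10), scaled by TMM and tested with its quasi-likelihood test in 1 fit of 24 libraries with group as the factor, with Benjamini-Hochberg adjustment over all genes tested and a threshold of 0.05. SEs were derived from the quasi-likelihood F. The biological coefficient of variation was 14.4%, with 21 residual degrees of freedom. CPM used TMM totals, and log2 CPM a prior count of 2. Correlations used Python 3.11.15 and numpy 2.4.6. DESeq2 1.42.0 and limma 3.58.1 served as alternatives. The edgeR script was tested on simulated data. Members, gene lists and tests were chosen with earlier results of these data known, and the library number term was chosen after its values were seen. Named genes were all members, up to 4 genes per list with the smallest p, Nr3c1 and Nr3c2, the pairs with the highest and lowest r, and the 3 genes most like each member. The genes ranked 1 to 5 by p for library number were named as well. Replicate numbers did not pair libraries: of 24 same-numbered pairs 5 had a correlation over 0.1 (-0.194 to 0.15). Totals per library are given above, and no column was left out.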

Additional observations from a re-analysis of the deposited data

How the results depend on the processing

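The calls of Tsc22d3 and Plin4 on library number held in the edgeR fits that left out 1 library, saline replicates 2 and 3 or the 4 PICK1i libraries, and other tools, filters and blocks were not run for them. For PICK1i against saline the count of members called, 2 of 10, was 1 with no filter on low counts (1050 genes called), 4 with DESeq2 (1991 genes) and 0 with limma-voom (1114 genes). It was 0 with limma-voom and consecutive libraries as a random block (316 genes), 0 without saline replicates 2 and 3 (5 genes), 0 without PICK1i replicates 1, 2, 5 and 6 (0 genes), 0 without all 6 of these libraries (0 genes) and 0 with only the 2 groups compared (0 genes). With 1 library left out the count was 0 to 4 over 16 fits, with 299 to 2757 genes called. Plin4 lost its call without PICK1i replicate 5, 6 or 8 and without saline replicate 1, 2, 3, 4 or 5. Cdkn1a lost it without PICK1i replicate 1, 5, 6 or 8 and without saline replicate 2, 3, 5 or 6. For PSD-95i against PICK1i 1 member, Mt2, was called with DESeq2, limma-voom and without saline replicates 2 and 3, and 0 to 2 with 1 library left out. For PSD-95i against saline the count was 0 in each alternative run. The cause of these differences was not tested, beyond the fewer samples that some alternatives hold.

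Replicate numbers did not pair libraries, and with a replicate block 2 members and 1127 genes were called in PICK1i against saline, with Pdk4 at -0.0049 on the log2 scale. Of 800 values compared, 48 changed sign, none of them of a member called in the main comparison. In PICK1i against saline, Zbtb16 was 0.0012 without saline replicates 2 and 3, 0.14 without the 4 PICK1i libraries and 0.20 without all 6. Errfi1 was 0.11 without the 4 and 0.077 without all 6, where Fkbp5 was 0.13, Mt1 -0.058 and Mt2 -0.0026. In PSD-95i against saline, Fkbp5 was 0.11 and Mt1 -0.0447 without saline replicates 2 and 3, and 0.11 and -0.0449 without all 6. With library number as a covariate, Sgk1 was -0.13, Tsc22d3 -0.019, Pdk4 -0.0599 and Errfi1 -0.0033. In PSD-95i against PICK1i without the 4, Fkbp5 was -0.0261, Zbtb16 -0.0437, Pdk4 -0.12, Mt1 0.0134 and Errfi1 -0.0202. Without all 6 these were -0.0264, -0.0455, -0.13, 0.0128 and -0.0212, and with library number Pdk4 was -0.0685. With 1 library left out, Pdk4 ranged over -0.0936 to 0.11 and Zbtb16 over -0.14 to 0.0269 in PICK1i against saline. In PSD-95i against saline, Mt1 ranged over -0.0080 to 0.0788 and Pdk4 over -0.0062 to 0.15. In PSD-95i against PICK1i, Pdk4 ranged over -0.0217 to 0.14 and Sgk1 over -0.25 to 0.0033. The median r of member pairs was 0.036 within saline, and r of Fkbp5 and Tsc22d3 was -0.508 there. Low counts limit Pdk4 most, with 42 to 125 counts in PICK1i libraries.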
